A study of Drosophila melanogaster with 12 samples.

Results

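The methuselah family of Drosophila is a group of G protein-coupled receptors, named after mth, whose mutants were found to live longer and to withstand stress. The 10 family genes described here are mth, mthl1, mthl2, mthl3, mthl4, mthl5, mthl8, mthl9, mthl10 and mthl14, identified by FlyBase identifier among the 17807 genes of a count table. They were listed with earlier results of these data known, and mthl8 was singled out in that choice. The levels of mthl8 are therefore described without a test, and calls of the other 9 are a description of these libraries rather than independent evidence. The family's other 6 genes, mthl6, mthl7, mthl11, mthl12, mthl13 and mthl15, are given separately.

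RNA was measured by sequencing of polyA-selected RNA from male forelegs of 4 groups, each with 3 biological replicates, 12 libraries in all. The groups were a CS/CO13N hybrid and the strain CO13N, which the series describes as selective, and the strains RG11N and CS, which it describes as promiscuous. The labels give no age, treatment, transgene, direction or generation of the cross, or number of legs per library, and the hybrid shares alleles with both CO13N and CS. The question is how foreleg transcripts differ between selective and promiscuous males, in a leg that carries taste hairs.

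As background, a receptor of this class spans the membrane repeatedly and passes a signal to heterotrimeric G proteins inside the cell. Peptide or protein ligands have been reported for a few members. Products of stunted (sun) act on Mth, growth-blocking peptides act on Mthl10, and Folded gastrulation (fog) acts on Mthl1 in shaping embryonic epithelia. For mthl2, mthl3, mthl4, mthl8, mthl9 and mthl14 no role is stated here.

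Total counts ranged from 26374831 to 36034966 per library, and 3 counts, the limit that a count of 0 allows, corresponded to 0.0784 to 0.117 CPM (counts scaled to library size). This limit covers counting error only. The foreleg Hox gene Scr stood at 222 to 314 CPM and the appendage gene Dll at 292 to 418 CPM, while the posterior Hox gene Abd-B reached at most 0.626 CPM and the yolk protein gene Yp1 at most 1.22 CPM (all 4 chosen after their values were seen). The summed testis and accessory gland markers reached 0.842 CPM at most. Summed odorant receptor genes, which mark antenna and palp, stood at 250.3 CPM in hybrid replicate 3, 138 CPM in RG11N replicate 3 and 88.6 to 248 CPM in the 3 CS libraries, against 13.4 to 24.1 CPM in the other 7.

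**Figure D1:**
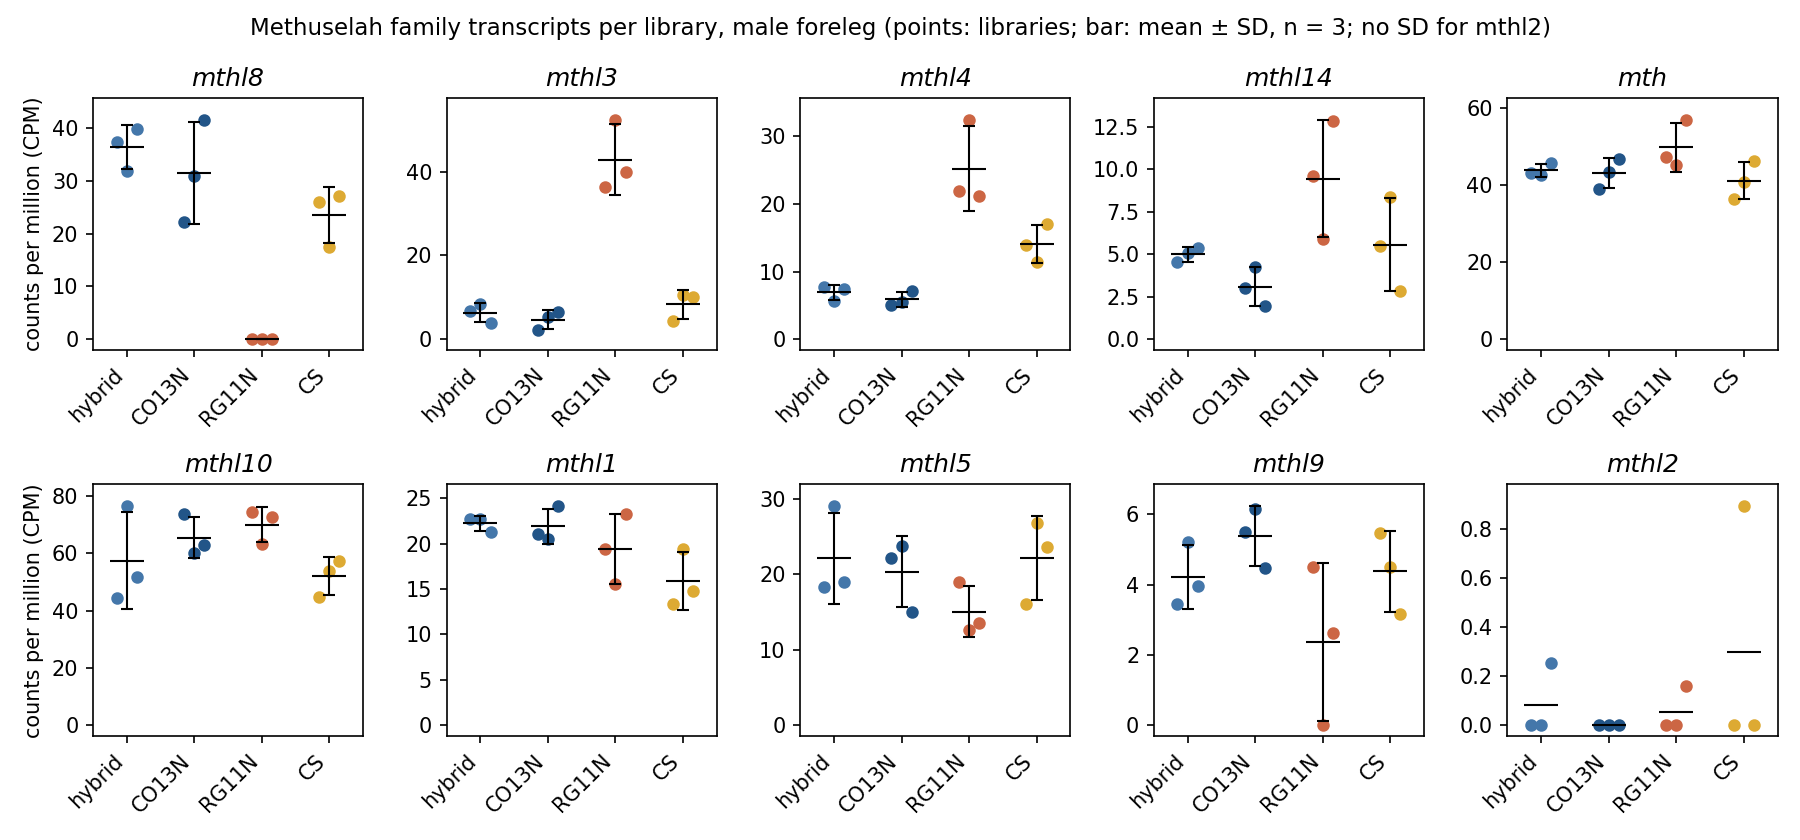
Level of each of the 10 family genes in CPM (y axis) in every library of the hybrid, CO13N, RG11N and CS (x axis); points are libraries, and bars give the mean and SD of 3 libraries (no SD for mthl2). RG11N libraries lie at 0 for mthl8 and above all 9 other libraries for mthl3 and mthl4.

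mthl8 had no count in any RG11N library and was detected in all 9 others. The gene (FBgn0052475) lies on the plus strand of chromosome 3L from 22428 to 26308 in dm6 coordinates, has 3413 exonic bases and shares no exon with another annotated gene. Its counts were 1137, 951 and 1418 in the hybrid, 735, 1183 and 1346 in CO13N, 0, 0 and 0 in RG11N, and 766, 450 and 779 in CS. Scaled for depth, these were 37.4, 31.8 and 39.9 CPM in the hybrid, 22.2, 30.9 and 41.6 CPM in CO13N, and 26.0, 17.5 and 27.1 CPM in CS. The 3 RG11N libraries allow at most 0.0319 CPM when pooled (3 counts over the group). Against that limit mthl8 was at least 1149-fold higher in the hybrid than in RG11N, at least 988-fold higher in CO13N than in RG11N, and at least 747-fold lower in RG11N than in CS. Without RG11N replicate 1, 2 or 3 these bounds fell to as little as 711, 607 and 464, since fewer counts then set the limit.

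The groups with mthl8 counts were closer to each other than to RG11N. The hybrid averaged 36.4 ± 4.15 CPM, CO13N 31.6 ± 9.68 CPM and CS 23.6 ± 5.27 CPM (SD, n = 3 each). Every hybrid library lay above every CS library (14.6% of genes tested did not overlap between these groups, in either direction), while CO13N overlapped both the hybrid and CS. The log2 differences were 0.63 ± 0.24 for the hybrid over CS, 0.42 ± 0.24 for CO13N over CS and 0.21 ± 0.24 for the hybrid over CO13N (approximate standard errors). mthl8 thus set RG11N apart. It did not separate the selective groups from the promiscuous ones, since CS overlapped CO13N, though CS lay below the hybrid.

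mthl8 took 18.0 ± 3.46% of the summed CPM of the 10 members in the hybrid, 15.6 ± 4.13% in CO13N, 0% in RG11N and 12.7 ± 3.39% in CS. Of 8601 genes with at least 10 counts in each of the 9 libraries outside RG11N, 5 (0.0581%) had no count in RG11N. mthl8 had the highest total of the 5, with 8765 counts. The others were BomBc1, a gene for a secreted immune peptide, with 3919 counts, and hpRNA:CR33940, CG34124 and CR43087 with 394 to 584 counts. A count of 0 describes the reads that the authors' counting assigned to the annotated gene. Reads were not realigned, and the sequence of mthl8 in RG11N was not examined.

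mthl8 is the outermost gene of the left tip of chromosome 3L among the genes in the table, so neighbours were available on 1 side only. The first of them, CG43149, starts 27.6 kb away (53873 to 54751, minus strand) and had 335 counts in RG11N and 366 in CS. Its log2 fold change in RG11N over CS was -0.29, with an adjusted p of 0.882 in edgeR. The second, the larval serum protein gene Lsp1gamma at 66430 to 68995, had no count in RG11N or CS. Counts were therefore present in RG11N at the nearest neighbour that the leg expressed.

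Farther in, and chosen after its values were seen, CG12483 at 97628 to 98375 averaged 1565 CPM in RG11N, against 376 CPM in CS. It was higher in RG11N than in CS by 2.06 ± 0.26 on the log2 scale (edgeR adjusted p = 0.000421). The hybrid averaged 631 CPM and CO13N 680 CPM. Pdk1, 103.1 kb from mthl8, stood at 198 CPM in RG11N and 238 CPM in CS, with an adjusted p of 0.214 in edgeR.

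**Figure D2:**
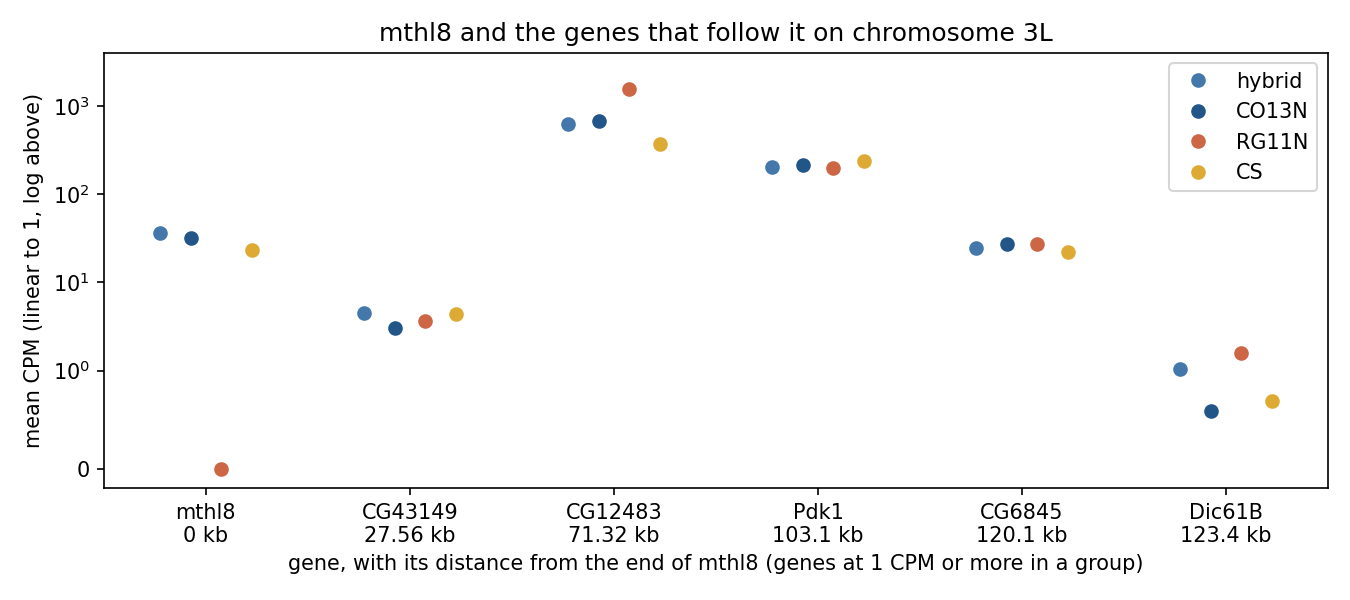
Mean CPM (y axis, linear to 1 and logarithmic above) of mthl8 and of the genes that follow it, labelled with their distance in kb (x axis), for the hybrid, CO13N, RG11N and CS (colours; genes at 1 CPM or more in at least 1 group). RG11N lies at 0 for mthl8 and within the range of the other groups at CG43149, and highest at CG12483.

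The genes whose log2 CPM followed that of mthl8 most closely over the 12 libraries were also low in RG11N. They were the aquaporin gene Drip (Pearson's r = 0.98), CG11737 (0.97), the translation elongation factor gene eEF1beta (0.97), the cytochrome P450 gene Cyp12e1 (0.96) and CG7255 (0.96). The libraries share depth and strain, and the 3 RG11N libraries, at 0 for mthl8, stand apart from the other 9. Drip averaged 213 CPM in the hybrid, 234 CPM in CO13N, 16.6 CPM in RG11N and 190 CPM in CS. None of the 5 was at 0 in RG11N; their means there were 3.86 to 122 CPM.

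mthl3 and mthl4 were both highest in RG11N. The genes are neighbours on the minus strand of chromosome 2R, mthl4 at 17445185 to 17447483 and mthl3 at 17448533 to 17452598, with 1049 bases between them. mthl3 (FBgn0028956) stood at 6.82, 8.33 and 3.77 CPM in the hybrid, 2.12, 5.36 and 6.61 CPM in CO13N, 36.3, 52.4 and 39.9 CPM in RG11N, and 4.42, 10.6 and 9.96 CPM in CS. Every RG11N library was above all 9 others, as it was for 4.32% of the 10996 genes tested, and the other 3 groups overlapped.

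mthl3 fell by 3.19 on the log2 scale in CO13N relative to RG11N (SE 0.45, edgeR adjusted p = 0.00145). It fell by 2.77 in the hybrid relative to RG11N (SE 0.45, edgeR adjusted p = 0.00305). In RG11N it was 5.15-fold higher than in CS (log2 2.36 ± 0.44, edgeR adjusted p = 0.00585). The differences from CS did not pass, with log2 values of -0.83 ± 0.43 in CO13N and -0.40 ± 0.42 in the hybrid (edgeR adjusted p = 0.413 and 0.886).

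mthl4 (FBgn0034219) stood at 7.70, 5.66 and 7.38 CPM in the hybrid, 5.05, 5.46 and 7.10 CPM in CO13N, 21.9, 32.4 and 21.2 CPM in RG11N, and 13.9, 11.4 and 16.96 CPM in CS. All 6 selective libraries were below all 6 promiscuous libraries, which was so, in one direction or the other, for 1.92% of genes tested. The RG11N libraries in turn lay above the CS libraries (21.5% of genes tested did not overlap here, in either direction), and the hybrid overlapped CO13N. mthl4 was thus ordered by group, with RG11N highest and CS next.

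mthl4 fell by 2.10 on the log2 scale in CO13N relative to RG11N (SE 0.27, edgeR adjusted p = 9.52e-05). It fell by 1.86 in the hybrid relative to RG11N (SE 0.26, edgeR adjusted p = 0.000297) and by 1.26 in CO13N relative to CS (SE 0.26, edgeR adjusted p = 0.00798). The last call ended without CO13N replicate 2 (adjusted p = 0.0508) and when the odorant receptor sum entered the fit (adjusted p = 0.165), where the log2 values were -1.22 and -1.32. In the hybrid relative to CS the log2 difference was -1.03 ± 0.26 and did not pass in edgeR (adjusted p = 0.0755), whereas DESeq2 gave an adjusted p of 0.021. In RG11N relative to CS it was 0.84 ± 0.26 (edgeR adjusted p = 0.0637, and 0.0487 in edgeR without CS replicate 3). DESeq2 gave an adjusted p of 0.038 there and called 5% of all genes higher.

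**Figure D3:**
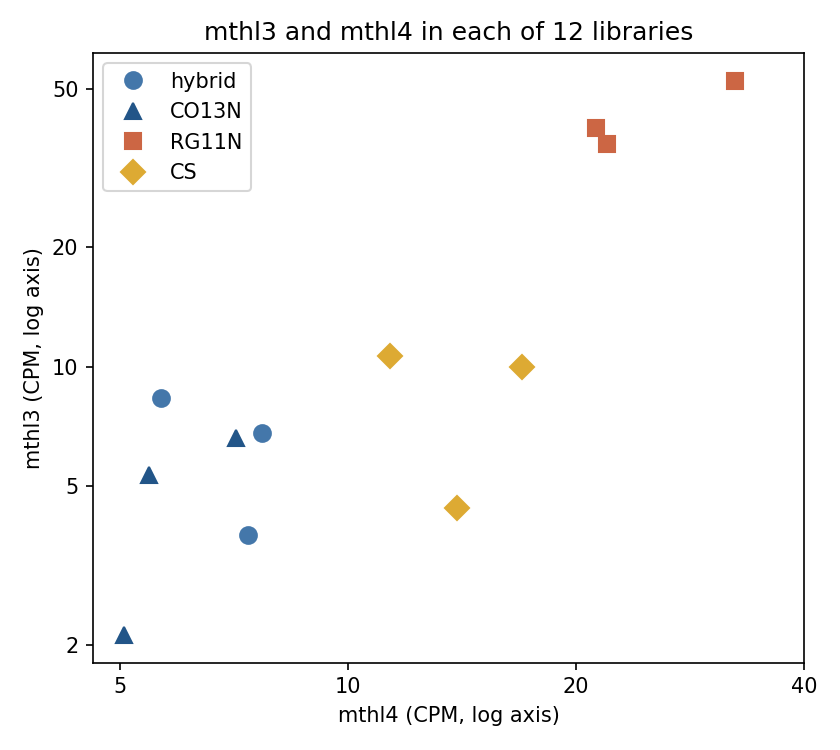
mthl3 (y axis) against mthl4 (x axis) in CPM on log axes, with 1 point per library and a colour and shape for the hybrid, CO13N, RG11N and CS. The 3 RG11N libraries stand at the upper right, and CS lies to the right of the hybrid and CO13N along mthl4 but overlaps them along mthl3.

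The mthl3 to mthl4 count ratio was 0.885, 1.47 and 0.511 in the hybrid, 0.419, 0.981 and 0.930 in CO13N, 1.66, 1.62 and 1.88 in RG11N, and 0.317, 0.935 and 0.587 in CS. The ratio was therefore highest in RG11N, and the counts of the 2 neighbours were not in a fixed proportion. How reads that align to both genes were treated is not given in the sources used here. EDTP, CG10764 and robl, on either side of the pair, were called by edgeR or DESeq2 in none of the 8 comparisons, though EDTP had an unadjusted p under 0.05 in edgeR in 3 (selective versus promiscuous, CO13N versus CS and hybrid versus CS). EDTP, which follows mthl4, averaged 36.9 CPM in the hybrid, 37.9 CPM in CO13N, 45.7 CPM in RG11N and 52.8 CPM in CS. Its log2 value was -0.39 ± 0.13 in selective versus promiscuous, the direction of mthl4, and did not pass (edgeR adjusted p = 0.105). For RG11N versus CS its edgeR adjusted p was 0.614. robl, within 4 kb beyond mthl3, averaged 38.5 CPM in the hybrid, 38.6 CPM in CO13N, 33.4 CPM in RG11N and 36.4 CPM in CS (edgeR adjusted p = 0.829 in RG11N versus CS). CG10764, between robl and mthl3, averaged 0.368 CPM in RG11N and 0.351 CPM in CS.

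Neuronal markers were also higher in RG11N, and their summed list overlapped between the selective groups and CS. The summed list of 7 (elav, nSyb, Syt1, brp, cpx, Rdl and para) averaged 5875 ± 737 CPM in the hybrid, 5527 ± 574 CPM in CO13N, 7798 ± 444 CPM in RG11N and 5416 ± 938 CPM in CS (SD, n = 3 each). It ranged from 7303 to 8158 CPM in RG11N and from 4706 to 6658 CPM over the other groups, and none of the 7 was at 0 in any library. In RG11N relative to CS, edgeR called 5 of the 7 higher, where 2.94% of all genes tested were higher. Relative to RG11N it called 4 lower in CO13N (1.79% of all genes lower) and 3 lower in the hybrid (1.71%). In CO13N relative to CS it called 0, with a median log2 difference of -0.01 and 1 marker, elav, at an unadjusted p under 0.05 (0 called by DESeq2), against -1.26 for mthl4. In the hybrid relative to CS it also called 0, with a median of 0.04 and elav again at an unadjusted p under 0.05 (0 called by DESeq2), against -1.03 for mthl4. In selective versus promiscuous, edgeR called 2 of the 7 lower, elav and cpx, where 1.32% of all genes tested were lower. Their log2 values were -0.46 ± 0.10 and -0.42 ± 0.11 (edgeR adjusted p = 0.00727 and 0.0369). DESeq2 called more of the 7, with 7 in CO13N versus RG11N, 5 in the hybrid versus RG11N and 6 in RG11N versus CS. Over all genes it called 7.86%, 8.09% and 9.82% there, in either direction. In selective versus promiscuous DESeq2 called 3 of the 7 (7.24% of all genes). elav averaged 63.5 CPM in the hybrid, 66.8 CPM in CO13N, 98.7 CPM in RG11N and 81.5 CPM in CS, highest in RG11N and next in CS, as for mthl4. The mean of the list in RG11N was 1.44 times that in CS, against 5.14 times for mthl3 and 1.79 times for mthl4. Relative to CO13N the same ratios in RG11N were 1.41, 9.13 and 4.29. Other summed marker lists varied too. Glial markers stood at 689 to 910 CPM in RG11N and 1156 to 1294 CPM in CS. Midgut markers stood at 184 to 252 CPM in RG11N and 323 to 403 CPM in CS, with at least 3 of the 6 at 0 in every library. Both lists overlapped between RG11N and CO13N. Muscle markers ran from 806 to 10818 CPM over the libraries. The hemocyte, fat body and tracheal lists overlapped between RG11N and CS. The part of neuronal or other cell content in the mthl3 and mthl4 differences was not tested. In whole legs fewer cells of a type and less RNA per cell cannot be told apart.

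The profiles closest to mthl3 over the 12 libraries were those of dpr6, an immunoglobulin-domain gene of the neuronal cell surface (r = 0.98), lncRNA:CR46218 (0.95), CG34354 (0.94), CIAPIN1 (0.94) and Mst36Fb (0.93). dpr6 averaged 3.80 CPM in the hybrid, 3.62 CPM in CO13N, 13.5 CPM in RG11N and 5.73 CPM in CS. Those closest to mthl4 were nemy (0.95), the neuronal RNA-binding protein gene elav (0.94), Dap160, which acts in synaptic vesicle recycling (0.92), the protein kinase A regulatory subunit gene Pka-R2 (0.92) and CR43212 (0.92). nemy averaged 15.5 CPM in the hybrid, 15.98 CPM in CO13N, 48.0 CPM in RG11N and 28.1 CPM in CS. The genes named here, elav among them, were picked for likeness to mthl3 or mthl4 over these same libraries. A shared order of groups is therefore no separate observation.

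mthl14 (FBgn0052476, chromosome 3L, 247491 to 250305, plus strand) stood at 4.51, 5.09 and 5.35 CPM in the hybrid, 3.02, 4.26 and 1.98 CPM in CO13N, 9.57, 5.91 and 12.8 CPM in RG11N, and 5.47, 8.36 and 2.86 CPM in CS. RG11N lay above the hybrid and CO13N without overlap, and the hybrid lay above CO13N, while CS overlapped all 3. Between the hybrid and RG11N 23.3% of genes tested did not overlap, between CO13N and RG11N 22.7%, and between the hybrid and CO13N 11.5%. The gene was lower by 1.61 on the log2 scale in CO13N relative to RG11N (log2 -1.61 ± 0.44, edgeR adjusted p = 0.043).

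That call ended in 8 of 12 omissions of 1 library: any CO13N library (adjusted p = 0.138, 0.0666 and 0.146 without replicates 1, 2 and 3), any hybrid library (0.0553, 0.0533 and 0.0603), or RG11N replicate 1 or 3 (0.0775 and 0.22). It also ended with the odorant receptor covariate (adjusted p = 0.16) and without hybrid replicate 3 and RG11N replicate 3 together (0.27). Exons of mthl14 overlap those of DIP2, on the opposite strand, over 77 bases, and counting is not stated to use strand. DIP2 averaged 75.5 CPM in the hybrid, 89.4 CPM in CO13N, 109 CPM in RG11N and 75.7 CPM in CS. Its part in the mthl14 counts was not tested. The closest profiles to mthl14 were those of GstE3 (r = 0.91), GstD9 (0.87), cer (0.86), GstD6 (0.85) and Baldspot (0.85); the 3 Gst genes encode glutathione S-transferases.

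Of the members with reported ligands or developmental roles, mth, mthl10, mthl1 and mthl5, none was called by edgeR or DESeq2 in any comparison. At an unadjusted p under 0.05 in edgeR were mthl1 in 3 comparisons, mthl5 in 2 and mthl10 in 1. mth (FBgn0023000, chromosome 3L, 343378 to 346957) averaged 43.8 ± 1.69 CPM in the hybrid, 43.1 ± 3.95 CPM in CO13N, 49.7 ± 6.27 CPM in RG11N and 41.1 ± 4.83 CPM in CS (SD, n = 3 each). The groups overlapped in every pair, and the largest log2 difference was 0.27 ± 0.15, in RG11N relative to CS (edgeR adjusted p = 0.341). mthl10 (332801 to 342915) averaged 57.4 ± 16.8 CPM in the hybrid, 65.4 ± 7.12 CPM in CO13N, 69.9 ± 5.99 CPM in RG11N and 52.0 ± 6.46 CPM in CS. Every library of CO13N and of RG11N was above every CS library; 19.7% of genes tested did not overlap, in either direction, between CO13N and CS, and 21.5% between RG11N and CS. The log2 difference from CS was 0.33 ± 0.18 in CO13N (edgeR adjusted p = 0.416) and 0.43 ± 0.18 in RG11N (edgeR adjusted p = 0.19), and neither passed.

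mthl1 (FBgn0030766, chromosome X, 16640968 to 16650309) stood at 22.7, 22.7 and 21.3 CPM in the hybrid, 21.1, 20.5 and 24.1 CPM in CO13N, 19.4, 15.6 and 23.2 CPM in RG11N, and 13.3, 19.4 and 14.8 CPM in CS. Every library of the hybrid and of CO13N was above every CS library, as against 14.6% of genes tested that did not overlap between the hybrid and CS and 19.7% between CO13N and CS. RG11N overlapped all 3 groups. The log2 differences from CS were 0.49 ± 0.21 in the hybrid and 0.47 ± 0.21 in CO13N, and neither passed (edgeR adjusted p = 0.459 and 0.304).

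mthl5 (FBgn0037960, chromosome 3R, 11883938 to 11887168), which is needed for heart formation in the embryo, averaged 22.1 ± 5.99 CPM in the hybrid, 20.4 ± 4.65 CPM in CO13N, 15.1 ± 3.43 CPM in RG11N and 22.1 ± 5.54 CPM in CS. RG11N had the lowest mean, and the groups overlapped in every pair. The log2 difference was -0.55 ± 0.26 in RG11N relative to CS and 0.55 ± 0.26 in the hybrid relative to RG11N (edgeR adjusted p = 0.249 and 0.272).

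mthl9 (FBgn0035131, chromosome 3L, 329822 to 332309) had counts of 105, 156 and 141 in the hybrid, 182, 236 and 145 in CO13N, 158, 0 and 81 in RG11N, and 161, 116 and 91 in CS. The single 0 fell in RG11N replicate 2, so the RG11N mean of 2.37 ± 2.26 CPM describes its 3 libraries poorly. mthl9, mthl10 and mth lie in a row on the minus strand, with 491 bases between mthl9 and mthl10 and 462 between mthl10 and mth, and none of the 3 was called in any comparison. mthl14 lies on the same arm, outward of this row, and mthl8 at its tip.

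mthl2 (FBgn0035623, chromosome 3L, 5604790 to 5607190) was counted in 3 libraries only, with 9 counts in hybrid replicate 3, 5 in RG11N replicate 3 and 23 in CS replicate 2. It did not pass the filter on low counts. The odorant receptor sum in those libraries was 250.3, 138 and 248 CPM, while CS replicates 1 and 3, with 88.6 and 139 CPM, held no mthl2 count. Its exons share 29 bases with Eaf6. The part of antennal RNA or of Eaf6 reads in these counts was not tested.

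**Figure D4:**
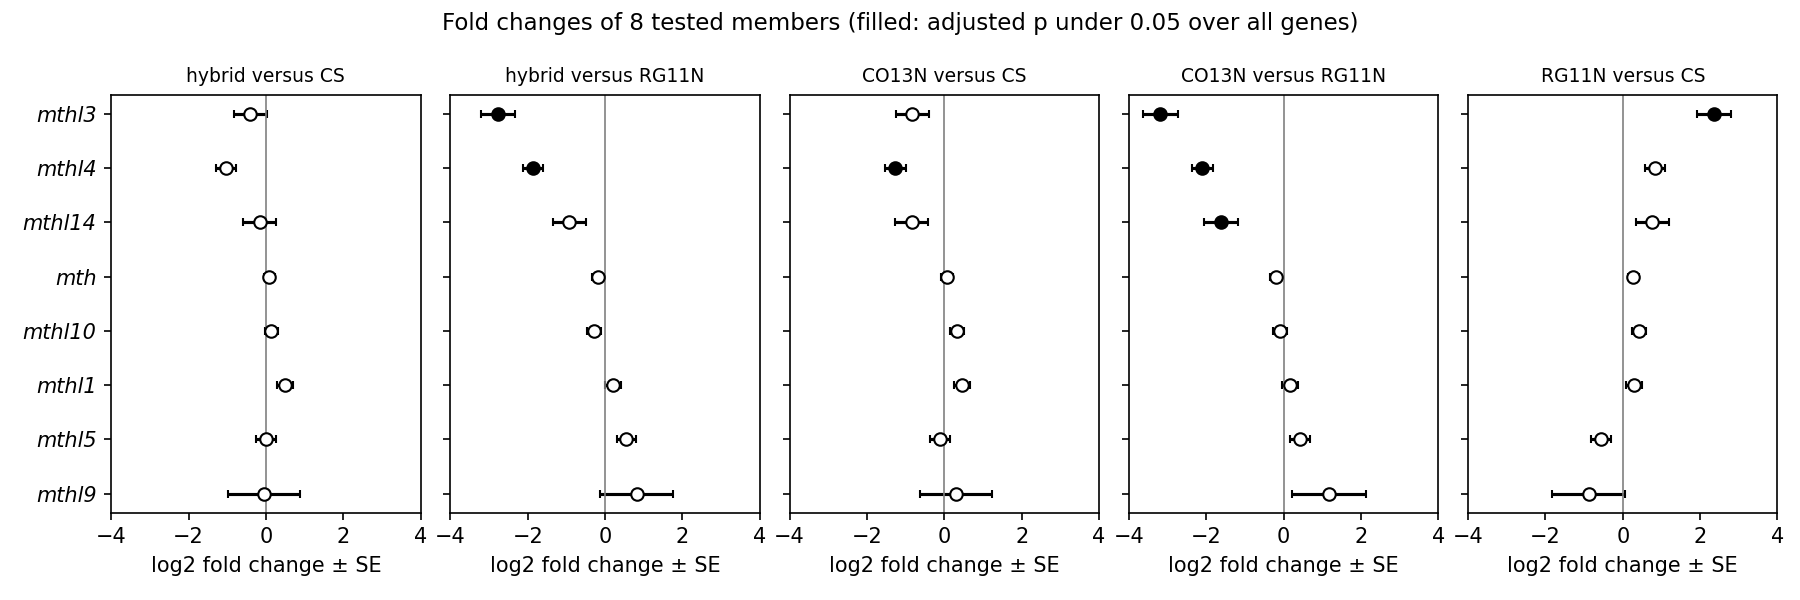
log2 fold changes with approximate standard errors (x axis) of the 8 tested members other than mthl8 (y axis) in 5 comparisons of strains; filled points had an edgeR adjusted p under 0.05 over all genes. The filled points are mthl3 in 3 comparisons, each with RG11N, mthl4 in 3 comparisons and mthl14 in CO13N versus RG11N.

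Counted over the 8 members tested beside mthl8, the calls fell on mthl3, mthl4 and mthl14. The mean of the hybrid and CO13N against the mean of RG11N and CS gave 0 higher and 2 lower, mthl4 (log2 -1.56 ± 0.19, edgeR adjusted p = 3.08e-05) and mthl3 (-1.80 ± 0.31, adjusted p = 0.00457), where 1.32% of all genes tested were lower. For mthl3 RG11N carries this difference, since CS overlapped the selective groups. Of the 6 others, mthl1 (log2 0.33 ± 0.14) and mthl14 (-0.88 ± 0.30) had an unadjusted p under 0.05 in the edgeR fit.

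CO13N versus RG11N gave 3 lower (mthl3, mthl4 and mthl14; background 1.79% lower), hybrid versus RG11N 2 lower (mthl3 and mthl4; 1.71% lower), CO13N versus CS 1 lower (mthl4; 1.35% lower) and RG11N versus CS 1 higher (mthl3; 2.94% higher). These comparisons share libraries, so their calls are not independent of each other. The median log2 fold change of the 8 was -0.15, -0.23, -0.03 and 0.36 in these 4 comparisons, against 0.02, 0.01, 0.01 and 0 over all genes tested.

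edgeR called 0 of the 8 in the hybrid versus CS, where 0.973% of all genes were called, with 2 at an unadjusted p under 0.05 (mthl1 and mthl4) and 1 call by DESeq2 (mthl4), which called 2.1% of all genes. It called 0 in the hybrid versus CO13N, where 0.255% of all genes were called, with 0 unadjusted and 0 by DESeq2 (0.803% of all genes). Against the log2 mean of its named parents the hybrid also had 0 called (0.109% of all genes; 0 unadjusted, and 0 by DESeq2, which called 0.392%), and the largest difference was -0.40 ± 0.23, for mthl4.

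Levels of different genes were compared per kb of exon. Averaged over the 12 libraries, mth stood at 18.4 CPM per kb, above 70.2% of the genes tested, and mthl10 at 14.7 CPM per kb, above 64.2%. mthl5 stood at 10.2 CPM per kb, mthl4 at 6.74, mthl8 at 6.70, mthl3 at 6.21 and mthl1 at 3.90, against a median of 8.43 over 10939 tested genes with a length. mthl14 and mthl9 were lower, at 2.76 and 1.92 CPM per kb, and mthl2 lowest, at 0.0536.

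The order of these length-scaled levels differed between groups. In the hybrid and in CO13N the order from the top was mth, mthl10, mthl5, mthl8, mthl1 and mthl4. mthl8 lay clear of mthl1 in both, whereas mth overlapped mthl10 and mthl5 overlapped mthl8. In CS, mthl4 (7.30 ± 1.45 CPM per kb) and mthl8 (6.90 ± 1.54) overlapped and came next after mth, mthl10 and mthl5. In RG11N, mthl3 (17.1 ± 3.37 CPM per kb) and mthl4 (13.1 ± 3.25) stood beside mth (20.5 ± 2.59) and mthl10 (16.8 ± 1.44), with overlap at each step, and mthl8 stood last. The summed CPM of the 10 members was 204 ± 20.01 in the hybrid, 201 ± 8.52 in CO13N, 234 ± 8.01 in RG11N and 187 ± 18.9 in CS.

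**Figure D5:**
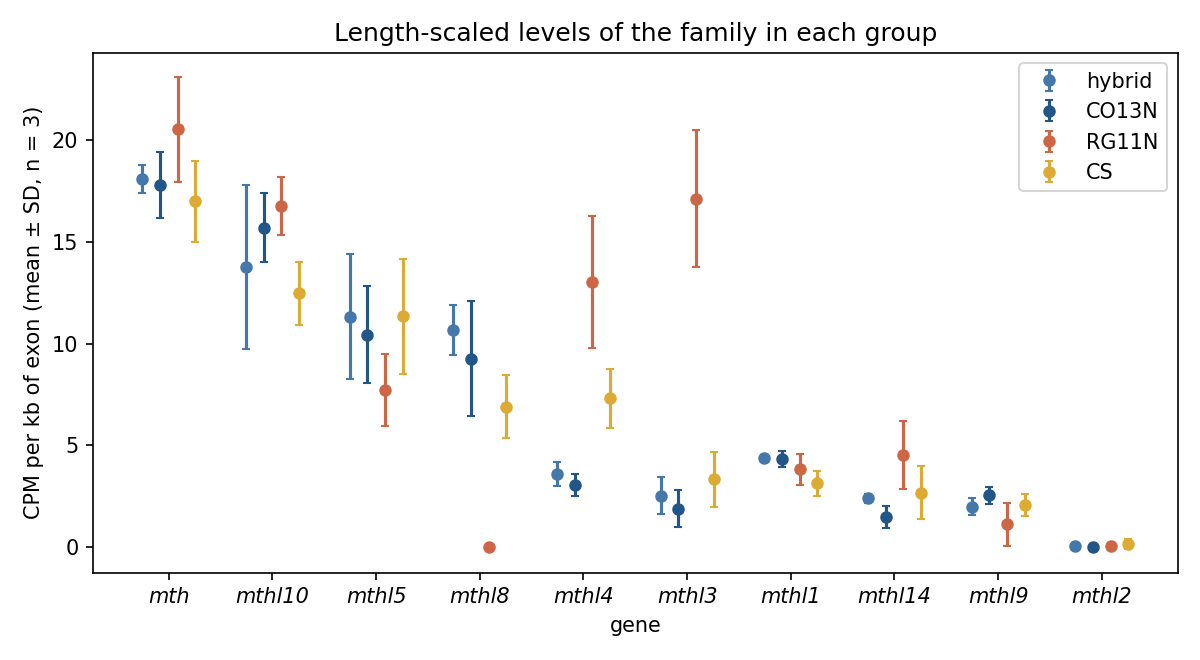
Level of each of the 10 genes in CPM per kb of exon (y axis, mean ± SD of 3 libraries) for the hybrid, CO13N, RG11N and CS (colours; genes on the x axis). mth and mthl10 lie near the top in every group, and mthl3 and mthl4 join them in RG11N, where mthl8 is at 0.

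Of the other 6 family genes, mthl15 and mthl11 passed the filter on low counts and neither was called in any comparison. mthl15 averaged 4.48 ± 1.59 CPM in the hybrid, 3.06 ± 1.14 CPM in CO13N, 3.53 ± 2.20 CPM in RG11N and 4.10 ± 2.15 CPM in CS. mthl11 had 134 counts over the 12 libraries. mthl7 was counted in RG11N alone, with 0, 44 and 31 counts in its replicates. mthl6 had 3 counts in hybrid replicate 3, mthl12 had 15 in hybrid replicate 2 and mthl13 had 22 in CS replicate 2, with 0 in the other libraries.

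Of 6 tested ligand genes of 7 listed, edgeR called 1 in 1 comparison, Gbp2, a growth-blocking peptide gene, in the hybrid versus RG11N (log2 -1.03 ± 0.28, adjusted p = 0.0387). In that comparison 1.71% of all genes tested were lower in edgeR. DESeq2 called Gbp2 there too, where it called 8.09% of all genes in either direction. It also called Gbp2 higher in RG11N than in CS, where it called 5% of all genes higher. Gbp2 stood at 5.96, 5.79 and 6.39 CPM in the hybrid, 9.10, 11.1 and 7.995 CPM in CO13N, 11.02, 14.7 and 11.4 CPM in RG11N, and 8.09, 5.72 and 6.76 CPM in CS. The call ended in 7 of 12 omissions of 1 library (adjusted p up to 0.165), with replicate number as a factor (0.053), without the filter on low counts (0.0556) and without hybrid replicate 3 and RG11N replicate 3 together (0.18). Gbp1 averaged 27.2 to 29.8 CPM in the 4 groups, fog 44.1 to 56.1 CPM and sun 127 to 158 CPM, with log2 differences of at most 0.35 in size between any 2 groups. Gbp3 and Dup99B were too low for their differences to be measured well, with at most 0.378 CPM in the mean of any group for Gbp3 and 0.747 to 1.82 CPM in the 4 group means for Dup99B. SP, the gene of the seminal sex peptide, which has also been reported to activate Mth, had no count in any library.

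Of 15 listed genes of G protein signalling, all tested, edgeR called 4 in at least 1 comparison. It called 2 lower in selective versus promiscuous (1.32% of all genes tested were lower) and 2 in CO13N versus CS (1.35%). It called 3 lower in CO13N versus RG11N (1.79%), 1 in the hybrid versus RG11N (1.71%) and 1 in RG11N versus CS (2.83%). The calls of Ggamma30A, norpA and Ggamma1 were lower in CO13N, the hybrid or their mean, and that of Gbeta76C was lower in RG11N than in CS. In the mean of the hybrid and CO13N against that of RG11N and CS, Ggamma30A (log2 -0.86 ± 0.12, edgeR adjusted p = 0.000138) and norpA (-0.62 ± 0.09, adjusted p = 0.000509) fell. Ggamma30A encodes a G protein gamma subunit and norpA a phospholipase C, both known from photoreceptors. norpA stood at 78.2, 78.5 and 84.9 CPM in the hybrid, 77.8, 70.6 and 78.8 CPM in CO13N, 131, 110.3 and 149 CPM in RG11N, and 103, 108 and 121 CPM in CS. No selective library overlapped a promiscuous one, as was so, in one direction or the other, for 1.92% of genes tested, mthl4 among them. Ggamma30A averaged 82.4 CPM in the hybrid, 51.5 CPM in CO13N, 117 CPM in RG11N and 120 CPM in CS, and no selective library overlapped a promiscuous one here either. It was also called lower in CO13N relative to RG11N (log2 -1.18 ± 0.17, edgeR adjusted p = 0.000263) and relative to CS (-1.22 ± 0.17, adjusted p = 0.000159).

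Ggamma1 was lower in CO13N than in RG11N (-0.49 ± 0.13, edgeR adjusted p = 0.0418), and leaving out any of 5 libraries ended this call (adjusted p at most 0.197). Gbeta76C, a G protein beta subunit gene of the eye, averaged 0.512 ± 0.70 CPM in RG11N and 11.9 ± 6.58 CPM in CS (log2 -4.49 ± 0.94, edgeR adjusted p = 0.0164), in a comparison where 2.83% of all genes were lower. That call ended without RG11N replicate 3 (adjusted p = 0.0755). norpA was also called lower in CO13N and in the hybrid relative to RG11N (edgeR adjusted p = 0.00184 in CO13N and 0.00428 in the hybrid). It was lower in CO13N than in CS as well (adjusted p = 0.0269), but 5 omissions of 1 library ended that call (adjusted p up to 0.136). With the odorant receptor covariate the calls of norpA in CO13N versus CS (adjusted p = 0.604), Ggamma1 (0.109) and Gbeta76C (0.065) ended. Without hybrid replicate 3 and RG11N replicate 3 together those of Ggamma1 (0.236), Gbeta76C (0.103) and norpA in the hybrid versus RG11N (0.0631) ended.

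Of 8 other receptor genes of the secretin and adhesion kind or of the Fog pathway, edgeR called 2, each in 1 comparison. The planar polarity cadherin gene stan was lower in CO13N than in RG11N (-0.95 ± 0.25, edgeR adjusted p = 0.0458; 1.79% of all genes were lower there), and the call ended in 8 of 12 omissions of 1 library (adjusted p up to 0.162). Pdfr, the receptor gene of the circadian peptide PDF, averaged 4.87 ± 1.51 CPM in RG11N and 11.998 ± 2.61 CPM in CS (-1.30 ± 0.33, edgeR adjusted p = 0.0234; 2.83% of all genes were lower there), and the call ended in 4 of 12 (adjusted p up to 0.103). Both calls ended with the odorant receptor covariate (adjusted p = 0.0514 for stan and 0.156 for Pdfr), and that of stan without hybrid replicate 3 and RG11N replicate 3 (0.11).

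DESeq2 made more calls than edgeR in these 3 lists. It called 8 genes in CO13N versus RG11N, where edgeR called 4, and 7 in the hybrid versus RG11N, where edgeR called 2. Over all genes DESeq2 called 7.86% in CO13N versus RG11N and 8.09% in the hybrid versus RG11N. It called 4 in selective versus promiscuous (7.24% of all genes) and 4 in RG11N versus CS (9.82%), with 2 by edgeR in each, and 2 by each tool in CO13N versus CS (6.13% by DESeq2). In the hybrid versus CS DESeq2 called norpA lower (2.1% of all genes called, in either direction). In the hybrid versus CO13N it called Ggamma30A higher (0.803% of all genes). In both comparisons edgeR called none of these lists. Gbeta76C was called higher by DESeq2 in CO13N and in the hybrid relative to RG11N.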

How the data were processed

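The authors deposited raw counts per FlyBase gene, 1 column per library. Subread and the genome build dm6 are named, per the submitters' processing notes; versions, annotation release, strand setting and treatment of multiply aligned reads are not given in the sources used here. Symbols for 99.46% of identifiers, positions and exon lengths came from Ensembl BDGP6.54, the dm6 assembly.

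After a filterByExpr filter at a minimum count of 10, which left 10996 genes, edgeR 4.0.16 under R 4.3.3 scaled libraries by TMM and fitted the 4 group means together (8 residual degrees of freedom), with the robust quasi-likelihood F test for each comparison. Calls required an adjusted p (Benjamini-Hochberg, over all genes) under 0.05. Standard errors of log2 fold changes are approximate, from the F statistic. CPM used TMM-scaled library sizes, sums over marker lists used total counts, and profiles were compared as log2 CPM (prior count 2). The pipeline was tested on simulated data.

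Members and lists were chosen with earlier results of these data known. Named genes are all members, called genes of the lists, the 5 closest profiles (Pearson's r) of mthl8, mthl3, mthl4 and mthl14, and the 2 nearest genes to mthl8. Other neighbours (CG12483, Pdk1, EDTP, robl, CG10764, DIP2), genes at 0 in RG11N and uncalled ligand genes were named after their values were seen. Alternatives were RLE factors, no filter, DESeq2 1.42.0, replicate number as a factor, an odorant receptor covariate, leaving out 2 libraries with high odorant receptor sums, and leaving out each library. Of 60 marker genes 58 were matched by symbol. Same-numbered replicates of different groups correlated between -0.0894 and 0.209 in their deviations from group means.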

Additional observations from a re-analysis of the deposited data

How the results depend on the processing

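With replicate number as a factor (replicate block) the count of members called was 2 in selective versus promiscuous, 1 in CO13N versus CS, 3 in CO13N versus RG11N, 2 in the hybrid versus RG11N, 1 in RG11N versus CS and 0 in the 3 others, as without it. The numbers share no stated origin, and the 18 same-numbered pairs had a median correlation of 0.025 (-0.0894 to 0.209) in their deviations from group means. RLE factors and no filter gave the same counts. The count in CO13N versus CS was 0 with the odorant receptor covariate. In CO13N versus RG11N it was 2 with that covariate, without mthl14. It was also 2 there without hybrid replicate 3 and RG11N replicate 3 together. DESeq2 gave 1 in the hybrid versus CS and 2 in RG11N versus CS. The causes were not tested. Omitting 1 library gave 2 to 2 in selective versus promiscuous, 0 to 1 in CO13N versus CS, 2 to 3 in CO13N versus RG11N, 0 to 0 in the hybrid versus CS, 2 to 2 in the hybrid versus RG11N, 1 to 2 in RG11N versus CS, and 0 to 0 in the hybrid versus CO13N and versus its parents' mean. The calls of mthl3 held in all 18 alternatives (adjusted p at most 0.0399), as did those of mthl4 in selective versus promiscuous and against RG11N (at most 0.00493). No followed log2 fold change changed sign. Depth limits mthl2, mthl6, mthl12 and mthl13, whose counts were at most 23 in any library. All 3 CS libraries held odorant receptor transcripts, so CS could not be examined without them.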
